A study of Mus musculus with 39 samples.

Results

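Atm, Atr, Chek1, Chek2, Mdc1, Topbp1, Trp53bp1, Brca1 and Brca2 are 9 of the 32285 genes counted in droplet single-cell RNA-seq of whole mouse testis. They were chosen by symbol, and all 9 symbols had 1 row each in the gene list of both libraries. Only 4 of them encode kinases: Atm and Atr are the apical kinases of the DNA damage response, and Chek1 and Chek2 the checkpoint kinases that they phosphorylate. The other 5 encode proteins without kinase activity: the scaffolds and mediators Mdc1, Topbp1 and Trp53bp1 (53BP1), Brca1, and the recombinase loader Brca2.

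The study deleted Kdm6a (Utx), an X-linked H3K27 demethylase, in the male germ line. 1 library came from control testes (Kdm6a fl/y; Cre-) and 1 from conditional knockout testes (cKO; Kdm6a fl/y; Ddx4-Cre+). Both groups carry the floxed allele, and Ddx4-Cre acts in germ cells, so somatic cells of the testis keep Kdm6a. The age and the number of animals behind each library are not given in the labels, which speak of testes in the plural. With 1 library per genotype no difference below has a replicate check, and no p-value was computed. Intervals are 95% intervals for counting error alone.

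In mitotic cells ATM is activated at DNA double-strand breaks and ATR at single-stranded DNA, and TOPBP1 is an activator of ATR. In meiotic prophase the programmed breaks made by SPO11 activate ATM, and the unsynapsed X and Y chromosomes of pachytene spermatocytes are coated with ATR, BRCA1, TOPBP1 and MDC1 as they are silenced. BRCA2 loads recombinases, DMC1 among them, onto resected ends, and 53BP1 with BRCA1 governs the choice between end joining and recombination in somatic cells.

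Promoter windows of all 9 genes were found in RefSeq (GRCm38.p6), each running from 250 bases before to 50 bases after the annotated start. They are shown for the 4 genes whose level, with no free RNA subtracted, was highest in early spermatocytes (Atr, Mdc1, Topbp1, Brca2) and for Chek1. Chek1 was higher in round spermatids than in late spermatocytes in both libraries. So were Trp53bp1 and Brca1, whose windows are not shown. The windows lie at chr9:95857347-95857646 on the plus strand (Atr), chr17:35841248-35841547 on the plus strand (Mdc1), chr9:103305077-103305376 on the plus strand (Topbp1), chr5:150522371-150522670 on the plus strand (Brca2) and chr9:36726609-36726908 on the minus strand (Chek1). Each is written 5′ to 3′ along the gene. Capitals mark matches on either strand to TGACGTCA (the cAMP response element palindrome), TTTNNCGC (an E2F pattern) and CCAAT.
Atr: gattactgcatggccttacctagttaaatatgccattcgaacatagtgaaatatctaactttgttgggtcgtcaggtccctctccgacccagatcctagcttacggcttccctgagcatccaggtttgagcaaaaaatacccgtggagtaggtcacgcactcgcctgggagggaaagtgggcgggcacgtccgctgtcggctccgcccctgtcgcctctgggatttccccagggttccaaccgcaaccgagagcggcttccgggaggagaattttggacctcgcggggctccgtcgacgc
Mdc1: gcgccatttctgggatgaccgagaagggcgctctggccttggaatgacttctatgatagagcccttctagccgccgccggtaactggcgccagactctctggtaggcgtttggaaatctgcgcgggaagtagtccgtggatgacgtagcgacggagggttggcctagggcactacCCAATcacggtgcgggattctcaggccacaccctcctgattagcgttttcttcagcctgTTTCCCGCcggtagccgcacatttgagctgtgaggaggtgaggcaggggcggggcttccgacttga
Topbp1: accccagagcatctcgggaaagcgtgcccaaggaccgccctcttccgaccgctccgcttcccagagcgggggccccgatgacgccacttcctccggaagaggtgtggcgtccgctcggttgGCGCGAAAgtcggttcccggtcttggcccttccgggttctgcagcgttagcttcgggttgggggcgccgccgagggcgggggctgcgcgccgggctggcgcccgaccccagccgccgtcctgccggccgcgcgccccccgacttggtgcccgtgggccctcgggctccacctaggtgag
Brca2: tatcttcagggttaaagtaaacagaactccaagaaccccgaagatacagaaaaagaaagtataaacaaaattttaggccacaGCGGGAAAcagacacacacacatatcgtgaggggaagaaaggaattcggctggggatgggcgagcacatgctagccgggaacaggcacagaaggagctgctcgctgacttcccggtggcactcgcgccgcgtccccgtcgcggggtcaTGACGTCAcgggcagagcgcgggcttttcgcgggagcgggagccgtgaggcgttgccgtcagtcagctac
Chek1: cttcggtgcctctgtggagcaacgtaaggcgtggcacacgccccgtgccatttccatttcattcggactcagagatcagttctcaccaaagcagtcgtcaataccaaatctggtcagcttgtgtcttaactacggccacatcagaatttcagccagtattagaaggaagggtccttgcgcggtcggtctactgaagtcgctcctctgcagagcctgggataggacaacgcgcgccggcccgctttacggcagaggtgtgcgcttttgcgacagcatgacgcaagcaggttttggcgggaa
TGACGTCA was found in 1 of the 9 windows, that of Brca2, where it ends 13 bases before the start, and in 1.79% of all 32817 promoter windows. The E2F pattern was found in 4 of 9 windows (Brca2, Chek2, Mdc1 and Topbp1) and in 5.16% of all windows. CCAAT was found in 4 of 9 (Atm, Brca1, Chek2 and Mdc1) and in 37.4% of all. The windows of Atr, Chek1 and Trp53bp1 held none of these 3 patterns, and none of their matches overlapped another. The GC box letters GGGCGG, not in capitals above, were found in 5 of 9 windows and in 35.6% of all, and the MYB core AACNG in 9 of 9 and in 80.3% of all. A match describes the letters of the window and is not evidence that a factor binds there.

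Open chromatin at these windows was read from the authors' lists of ATAC-seq regions in sorted cKIT+ spermatogonia, called separately in 2 control and 3 cKO libraries. A region overlapped 8 of the 9 windows in control 1 (31.0% of all promoter windows), control 2 (38.5%), cKO 2 (29.0%) and cKO 3 (41.3%). In cKO 1 it overlapped 7 of 9 (23.7% of all windows). The window of Topbp1 had no region in any of the 5 libraries, and the nearest one lay 69742 to 69908 bases away, although this window was the most GC-rich of the 9, at 73.7%. Brca2 had a region in both control libraries, with the authors' fold enrichment 4.02 and 4.51, and in cKO 2 and cKO 3 (5.48 and 6.90), but none in cKO 1, the shortest list. Atr had a region in all 5, with fold enrichment 4.93 and 4.81 in control and 4.05, 5.01 and 4.98 in cKO. Atm had 7.99 and 8.23 in control and 7.26, 8.38 and 6.79 in cKO, so the groups overlapped for Atm and for Atr. No H3K27me3 CUT&Tag region of the same cell type overlapped any of the 9 windows, in either the 2 control libraries (9.54% and 12.2% of all windows) or the 3 cKO libraries (5.1%, 7.2% and 11.2%). These lists carry no depth, and a missing region means only that the caller listed none.

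The control library held 11252 barcodes with at least 3000 UMIs (unique molecular identifiers, the count of captured molecules) and a median of 8410.5, and the cKO library 8520 barcodes with a median of 8499. The libraries shared 30 of these barcodes. Cells were assigned to the stage whose marker genes scored highest, and none of the 9 genes was a marker. This gave 205 control and 192 cKO spermatogonia, 1111 and 601 early spermatocytes, 2378 and 1844 late spermatocytes, 1965 and 1823 round spermatids, and 4952 and 3591 elongating spermatids. The share of UMIs from X-linked genes followed the known silencing of the X chromosome, at 1.68% (control) and 1.66% (cKO) in spermatogonia, 0.86% and 0.52% in early spermatocytes, 0.19% and 0.18% in late spermatocytes, and 1.29% and 1.19% in round spermatids. Kdm6a had 169 UMIs in control and 10 in cKO early spermatocytes (20.7 and 2.07 counts per 1000000 UMIs, CPM), and 304 and 75 over all cells. In spermatogonia it had 23 and 10 (log2 ratio of cKO to control -0.91, -2.14 to 0.22). In late spermatocytes it had 9 and 6 (-0.06, -1.83 to 1.59), so the intervals of these stages include 0. It had 35 and 6 in round and 29 and 8 in elongating spermatids. The tags are 3′ ends, so they can lie outside the deleted exons. Free RNA was plentiful: the empty droplets carried a mean of 1340 UMIs in control and 821 in cKO. The level that 1 empty droplet in every cell would add is drawn for every gene and stage in the plot of levels and given in the text for some of them.

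Both apical kinases changed strongly along spermatogenesis, but at different stages. Among the 5 germ-cell stages Atm was highest in spermatogonia, at 116 CPM (99.96 to 133) in control and 88.3 (73.2 to 106) in cKO. Its level was 51.7 and 16.5 in early spermatocytes, 4.34 and 4.71 in late spermatocytes, 1.78 and 1.57 in round spermatids, and 1.10 and 0.88 in elongating spermatids. Each step down in this order was beyond counting error in the control library, and the elongating level was close to the 0.83 and 0.54 expected from an empty droplet. Early spermatocytes were uneven: those without a UMI of Stra8 had Atm at 23.7 and 8.76 CPM. Stra8 was on the list of early spermatocyte markers. Its level was nevertheless higher in spermatogonia (204 CPM in control and 195 in cKO) than in early spermatocytes (116 and 50.7). Spermatogonia and early spermatocytes with a Stra8 UMI, pooled, had Atm at 163 CPM (146 to 181) and 89.3 (71.1 to 111). In control that pool thus stood above the spermatogonia. Atr was instead highest in early spermatocytes, at 555 CPM (539 to 571) in control and 385 (367 to 403) in cKO. It was 277 and 192 in late spermatocytes and 141 and 108 in spermatogonia, where an empty droplet per cell would give 21.9 and 11.9. The early and late gates were not sharply apart: summed late spermatocyte markers were at 3166 and 3458 CPM in early spermatocytes, and 4936 and 4700 in late ones. In clusters built without these genes, Atr was at 536 and 322, and 634 and 492, in those named early. In those named late it was at most 532 and 356. In round spermatids it was 28.7 and 19.3, where an empty droplet per cell would give 11.5 and 5.24, and in elongating spermatids 30.2 and 19.5, where it would give 22.5 and 11.5. From the highest to the lowest stage the uncorrected level of Atr spanned 19.3-fold in control and 19.9-fold in cKO, and that of Atm 105-fold and 101-fold. Free RNA could make up much of the lowest levels, so these spans describe uncorrected levels only.

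The checkpoint kinases were both highest in spermatogonia. Chek1, the kinase downstream of ATR, was at 43.8 CPM (34.3 to 55.0) in control spermatogonia and 30.9 (22.3 to 41.8) in cKO. It was lower in early spermatocytes (12.5 and 8.69) and late spermatocytes (3.36 and 3.71), and higher again in round spermatids, at 14.2 (12.9 to 15.6) and 14.7 (13.4 to 16.2). The 432 UMIs counted in round spermatids of each library were far above the 0.63 and 0.31 CPM expected from an empty droplet. Chek2, the kinase downstream of ATM, had 172 control and 97 cKO UMIs in all. It was at 43.8 CPM (34.3 to 55.0) in control and 16.9 (10.7 to 25.4) in cKO spermatogonia, then at 3.80 and 3.72 in early and 0.94 and 1.00 in late spermatocytes. In spermatids it had 4 to 7 UMIs per stage and library, too few to order the stages.

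Among the mediators, Mdc1 and Topbp1 were highest in early spermatocytes and Trp53bp1 in spermatogonia. Mdc1, the scaffold that binds phosphorylated H2AX, was at 279 CPM (268 to 291) in control and 205 (192 to 218) in cKO early spermatocytes, against 124 and 84.3 in late spermatocytes and 68.3 and 37.5 in spermatogonia. Topbp1 was at 239 and 183 in early spermatocytes, above spermatogonia (134 and 96.4) and late spermatocytes (51.0 and 41.3). Both were low in round spermatids, at 17.2 and 11.8 for Mdc1 and 6.18 and 3.85 for Topbp1. An empty droplet per cell would give 7.15 and 3.62 of this for Mdc1 and 2.40 and 1.24 for Topbp1. Trp53bp1 was at 61.2 and 46.3 in spermatogonia, 48.3 and 38.9 in early and 17.8 and 15.2 in late spermatocytes. Like Chek1 it was higher in round spermatids, at 37.3 CPM (35.2 to 39.5) in control and 38.1 (35.9 to 40.4) in cKO, where an empty droplet would give 2.38 and 1.32. Trp53bp1 overlaps Tubgcp4 and Map1a in the annotation, as Atr overlaps 1700065D16Rik and Gm16794, and Brca2 overlaps Gm25284, Gm23641 and Gm42529. The strands of these genes were not compared, so whether tags in shared bases could belong to either gene was not tested.

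The BRCA genes differed from each other too. Brca1 was highest in spermatogonia, at 95.9 CPM (81.6 to 112) and 66.9 (53.9 to 82.2), followed by early spermatocytes (33.9 and 18.8), round spermatids (12.0 and 8.97) and late spermatocytes (5.42 and 4.66). Brca2 was spread over spermatogonia (206 and 138) and early spermatocytes (245 and 143), and its highest stage exceeded the next by 1.19-fold in control and 1.04-fold in cKO. In the pooled cells of these stages with a Stra8 UMI, Brca2 was higher, at 369 CPM (343 to 396) and 202 (174 to 233). Without a Stra8 UMI, Brca2 was at 192 and 133 in spermatogonia and 207 and 131 in early spermatocytes. It was at 117 and 82.0 in late spermatocytes and 27.7 and 28.7 in round spermatids, where an empty droplet per cell would give 4.70 and 2.17. In cKO the difference between spermatogonia and early spermatocytes was within counting error for Brca2, as it was for Trp53bp1.

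Over the 9 genes and the 5 germ-cell stages, with no separate pool of cells with a Stra8 UMI, 5 were highest in spermatogonia in both libraries (Atm, Chek1, Chek2, Trp53bp1, Brca1). In early spermatocytes 4 were highest (Atr, Mdc1, Topbp1, Brca2). With free RNA, read from protamine and transition protein UMIs, subtracted, 2 were highest in early spermatocytes in both libraries, Atr and Mdc1. Topbp1 and Brca2 were then not highest there in both libraries. This subtraction was made in spermatogonia and spermatocytes only, not in spermatids. It removed 42.8% of control and 79.6% of cKO spermatogonial UMIs. With 1 empty droplet per cell subtracted, a setting not planned beforehand, all 4 genes were highest in early spermatocytes in both libraries. Of the 18581 genes with at least 50 UMIs, 25.7% were highest in spermatogonia and 12.6% in early spermatocytes in both libraries. None of the 9 was highest in late spermatocytes, round spermatids or elongating spermatids, where 16.3%, 19.8% and 9.56% of all genes were. From late spermatocytes to round spermatids the same 4 genes were at least 2-fold lower in both libraries on the log2(CPM + 1) scale, as were 22.4% of all genes. Atm and Chek2 were more than 2-fold lower in both libraries in CPM itself but not in both after 1 CPM was added. Chek1 and Trp53bp1 were at least 2-fold higher in round spermatids in both libraries, as were 20.8% of all genes. The Trp53bp1 difference was close to 2-fold and passed it under some settings only, given in the closing section.

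**Figure D1:**
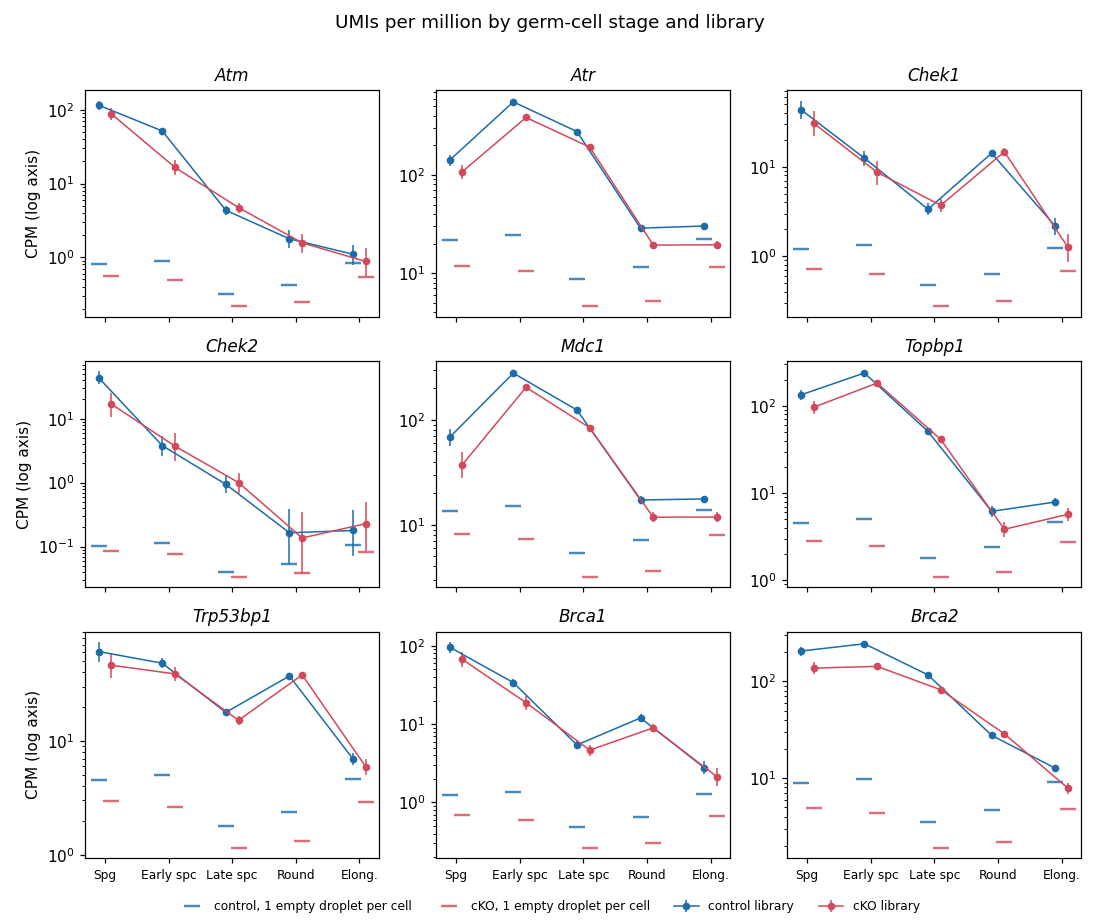
Level in CPM (log axis) of the 9 genes in spermatogonia (Spg), early and late spermatocytes (spc), and round and elongating spermatids, with 95% Poisson intervals as bars and the level expected from 1 empty droplet per cell as dashes. Before any subtraction of free RNA, Atr, Mdc1 and Topbp1 stand highest in early spermatocytes in both libraries. After the subtraction by protamine and transition protein UMIs, Topbp1 does not do so in both. Chek1 and Trp53bp1 are higher in round spermatids than in late spermatocytes.

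The share of cells with a UMI was highest in the same stage as the level for each of the 9 genes in both libraries. With every cell thinned to 3000 UMIs, Atr was detected in 77.2% of control early spermatocytes (74.7 to 79.7, exact binomial interval) and 65.1% of cKO early spermatocytes (61.1 to 68.9). The unthinned shares were 88.6% and 85.5%, at median depths of 5086 and 5991 UMIs. In elongating spermatids, where the Atr level was near that of free RNA, the thinned share was 9.55% in control and 6.77% in cKO, at median depths of 6699.5 and 6192 UMIs. Brca2 was detected in 51.2% of control and 33.9% of cKO early spermatocytes, against 4.26% and 2.48% of elongating spermatids. Mdc1 was detected in 51.4% and 41.8% of early spermatocytes and in 6.36% and 3.76% of elongating spermatids. The same shares were 49.6% and 40.4% against 2.77% and 1.75% for Topbp1, and 16.6% and 6.49% against 0.42% and 0.22% for Atm. In elongating spermatids an empty droplet per cell would give 13.97 of 17.6 CPM in control and 7.96 of 11.8 in cKO for Mdc1, 9.19 of 12.7 and 4.78 of 7.84 for Brca2, and 4.70 of 7.91 and 2.74 of 5.71 for Topbp1. The shares in that stage are therefore read as background, and no difference between the libraries is read from them. A control early spermatocyte held UMIs of a mean of 2.75 of the 9 genes and a cKO one of 2.13, against 0.48 and 0.39 in round and 0.28 and 0.17 in elongating spermatids. No member was seen in 3.24% of control and 8.82% of cKO early spermatocytes.

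**Figure D2:**
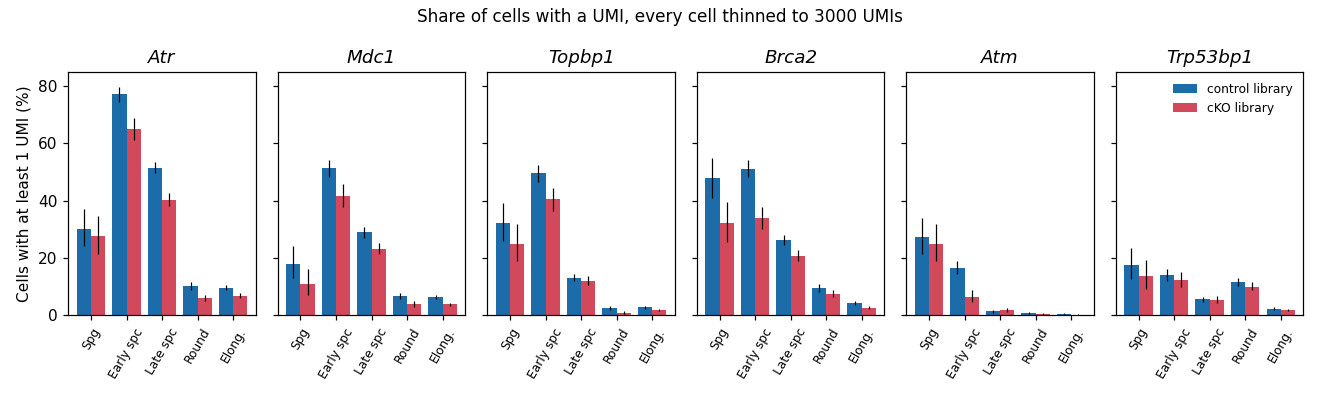
Percent of cells with at least 1 UMI of 6 of the genes after thinning every cell to 3000 UMIs, by stage and library, with exact 95% binomial intervals as bars. Early spermatocytes have the highest share for Atr, Mdc1 and Topbp1 in both libraries, and the cKO share is lower than the control share there (77.2% against 65.1% for Atr).

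The comparison of the cKO with the control library asks whether these genes are at another level when germ cells lack Kdm6a. Over all cells 8 of the 9 genes had a log2 ratio below 0 (53.7% of all genes did), with a median of -0.48 on the log2(CPM + 1) scale, where the median over 19100 genes was -0.02. On that scale, which is used for every count of genes past 1.5-fold below, a level at least 1.5-fold lower in cKO was seen for 2 of 9, Atr and Mdc1, and for 1.41% of all genes. Atm, at 7.34 and 4.68 CPM, was also past 1.5-fold in CPM itself, but not after 1 CPM was added. None of the 9 was at least 1.5-fold higher over all cells (0.241% of all genes were) or in spermatogonia (1.98%), early spermatocytes (1.24%), late spermatocytes (0.144%), round spermatids (0.41%) or elongating spermatids (0.104%). Atr had 20879 UMIs (157 CPM) in control and 9918 (100.1 CPM) in cKO, a log2 ratio of -0.65 (-0.69 to -0.62). Mdc1 had 9965 (75.0 CPM) and 4697 (47.4 CPM), a log2 ratio of -0.66 (-0.71 to -0.61). Among the 10699 genes with at least 1000 UMIs, 1.32% had a ratio as low as that of Atr or lower. The log2 ratio of Brca2 was -0.56 (-0.61 to -0.51), of Topbp1 -0.50 (-0.56 to -0.43), of Atm -0.65 (-0.81 to -0.49), of Brca1 -0.42 (-0.55 to -0.28) and of Chek2 -0.40 (-0.78 to -0.04). Chek1 and Trp53bp1 had 0.09 (-0.05 to 0.24) and -0.02 (-0.10 to 0.06), with intervals that include 0. The stage mixture enters these ratios, since early spermatocytes were 9.87% of control and 7.05% of cKO cells. When the stage levels were averaged by each stage's share of the control library's UMIs, not of its cells, none of the 9 passed 1.5-fold and their median was -0.42. In CPM itself Atm did, at -0.60.

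Within late spermatocytes, which held the most UMIs of Atr, Mdc1, Topbp1 and Brca2, 0 of 9 were at least 1.5-fold lower (1.71% of all genes were). Atr had a log2 ratio of -0.53 (-0.57 to -0.48), Mdc1 of -0.56 (-0.63 to -0.50) and Brca2 of -0.51 (-0.58 to -0.44), all short of that fold. Among the 7197 genes with at least 1000 UMIs in this stage, 2.26% had a ratio as low as that of Mdc1, 2.90% as low as that of Atr and 3.40% as low as that of Brca2. Topbp1 stood at -0.31 (-0.40 to -0.21) and Trp53bp1 at -0.23 (-0.39 to -0.07). Atm, Chek1, Chek2 and Brca1 were within counting error of no difference, at 0.12, 0.15, 0.09 and -0.22 (-0.51 to 0.07 for Brca1). Late spermatocytes had median depths of 18873.5 UMIs in control and 15788 in cKO.

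Within early spermatocytes 3 of the 8 genes with enough UMIs were at least 1.5-fold lower, Atm, Brca1 and Brca2, beside 13% of all genes. Atm was at 0.32 of the control level, a log2 ratio of -1.64 (-2.01 to -1.30). Brca1 had -0.85 (-1.21 to -0.50), Brca2 -0.78 (-0.90 to -0.65), Atr -0.53 (-0.61 to -0.45) and Mdc1 -0.45 (-0.56 to -0.34). Assignment was least certain in this stage, with 12.9% of control and 18.5% of cKO cells within 0.1 score units of another list. The 2 libraries did not hold the same mix of early spermatocytes: the cluster with the most control early spermatocytes had 505 control and 130 cKO cells, and the Stra8 level of the stage was 116 CPM in control and 50.7 in cKO. Inside that cluster Atm was at 114 and 69.0 CPM, a log2 ratio of -0.73 (-1.16 to -0.32), Atr at 536 and 322 (-0.73, -0.93 to -0.55), and Brca2 at 399 and 249 (-0.68, -0.90 to -0.46). Within that cluster the ratio of Atm was thus nearer to 0 than over the whole stage, and that of Atr was farther from it. In the other early spermatocyte cluster, of 338 control and 244 cKO cells, Atr had -0.37 (-0.50 to -0.24), Mdc1 -0.46 (-0.64 to -0.28), Brca2 -0.46 (-0.76 to -0.16) and Topbp1 -0.08 (-0.26 to 0.10), so the ratio of Atr there was nearer to 0 than over the whole stage. Early spermatocytes without a Stra8 UMI gave Atm -1.43 (-1.98 to -0.92), Brca1 -0.83 (-1.25 to -0.42), Brca2 -0.66 (-0.80 to -0.52) and Atr -0.54 (-0.62 to -0.46), all inside the whole-stage intervals. Spermatogonia and early spermatocytes with a Stra8 UMI, pooled, gave Mdc1 -1.19 (-1.59 to -0.81), Atr -0.99 (-1.24 to -0.75), Topbp1 -0.87 (-1.20 to -0.56), Brca2 -0.87 (-1.11 to -0.63) and Atm -0.87 (-1.23 to -0.51), while Brca1 (-0.37), Trp53bp1 (0.03), Chek1 (0.33) and Chek2 (0.58) had intervals that include 0. This pool was mixed differently in the libraries, with the summed spermatogonia markers at 853 CPM in control and 1341 in cKO and the early spermatocyte markers at 4437 and 3005, and the part of that mix in these ratios was not tested.

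Within spermatogonia Chek2 and Mdc1, 2 of 9, were at least 1.5-fold lower in cKO, beside 8.4% of all genes. Chek2 had 73 control and 23 cKO UMIs, a log2 ratio of -1.37 (-2.12 to -0.68), and Mdc1 114 and 51, a ratio of -0.87 (-1.37 to -0.38). The summed level of the 12 elongating spermatid markers, all of them detected, was 20793 CPM in control and 30500 in cKO spermatogonia. If all protamine and transition protein UMIs there came from free RNA, 42.8% of control and 79.6% of cKO spermatogonial UMIs would be free RNA. With that share subtracted, the log2 ratio was 0.072 for Chek2 and above 0 for Atm (1.06), Brca1 (0.91), Topbp1 (0.82) and Brca2 (0.67), so no direction can be given for these genes in spermatogonia. Chek1 (0.84) and Trp53bp1 (0.55), whose intervals included 0 before the subtraction, were above 0 as well. Atr stayed below 0, at -0.19. For Mdc1 the free RNA so estimated exceeded the whole cKO level, so that no ratio of it could be given, and its direction in spermatogonia cannot be given either. An empty droplet per cell would make up much less, 16.5% of control and 11.6% of cKO spermatogonial UMIs. Subtracting that reversed no spermatogonial ratio whose interval left out 0. Which estimate is nearer to the true share was not tested.

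In round spermatids 0 of 8 genes were at least 1.5-fold lower, beside 5.19% of all genes. Trp53bp1 (0.03, -0.09 to 0.15), Chek1 (0.05, -0.14 to 0.25) and Brca2 (0.05, -0.09 to 0.19) had intervals that include 0, while Atr had -0.57 (-0.73 to -0.42), Mdc1 -0.55 (-0.75 to -0.35) and Brca1 -0.42 (-0.66 to -0.19). With 1 empty droplet per cell subtracted, Atr had -0.35, Mdc1 -0.36 and Brca1 -0.45. Topbp1, with 188 and 113 UMIs, had -0.68 (-1.03 to -0.34) and was within 1.5-fold once 1 CPM was added. In elongating spermatids 2 of 8 were at least 1.5-fold lower on the log2(CPM + 1) scale, Atr and Brca2, beside 3.06% of all genes. Chek1, at 2.17 and 1.26 CPM, had a lower ratio in CPM itself (-0.79, -1.41 to -0.19) and was within 1.5-fold once 1 CPM was added. Empty droplets were themselves lower in cKO, in UMIs per droplet and in their Atr content, which was 133 CPM in control and 103 in cKO. After 1 empty droplet per cell was subtracted, the elongating spermatid ratio of Atr was -0.06 and that of Brca2 -0.27 in CPM, while that of Chek1 was -0.82. On the log2(CPM + 1) scale 0 of 8 were then at least 1.5-fold lower.

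**Figure D3:**
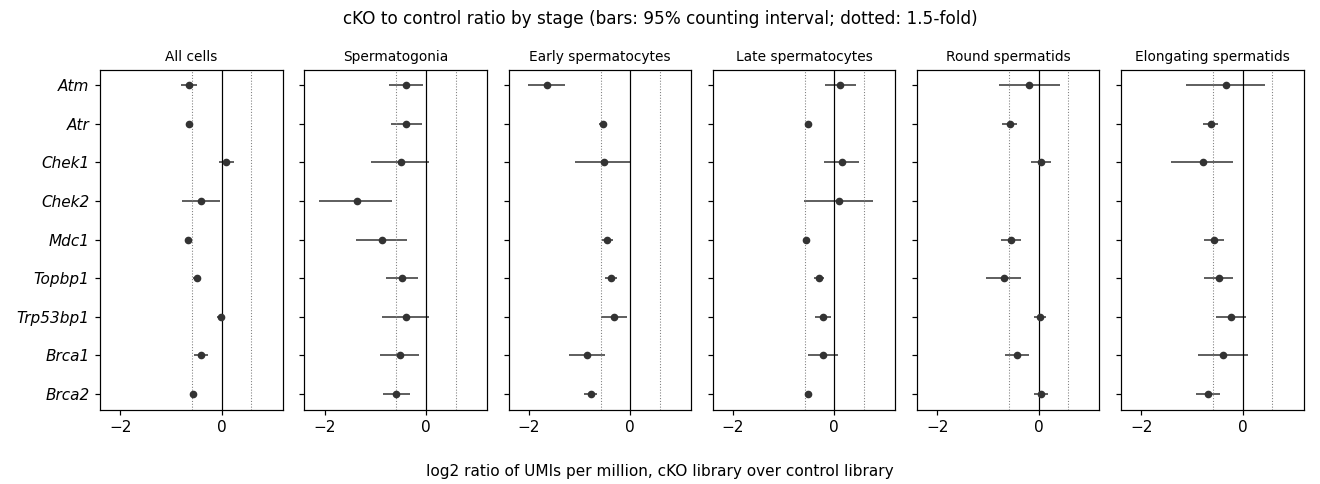
The log2 ratio of CPM in the cKO library over the control library (horizontal axis) for each gene, over all cells and in each stage, with 95% counting intervals as bars and dotted lines at 1.5-fold; genes with under 50 UMIs in a stage are left out. Before any subtraction of free RNA, Atr, Mdc1, Topbp1 and Brca1 lie left of 0 in every panel. Trp53bp1 and Chek1 lie near 0 over all cells and in round spermatids. In spermatogonia no direction can be given for Mdc1, Topbp1 or Brca1, given the subtraction by protamine and transition protein UMIs.

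Clusters built without these genes gave the comparison in narrower sets of cells. Atr had at least 50 UMIs in 21 of 22 clusters and a log2 ratio below 0 in 20 of them, with a median of -0.58 and a range of -1.06 to 0.03. Mdc1 was below 0 in 18 of 18 such clusters (median -0.53, from -1.08 to -0.38), Topbp1 in 16 of 17 (median -0.62), Brca2 in 17 of 18 (median -0.47) and Brca1 in 11 of 11 (median -0.48). Trp53bp1 was below 0 in 13 of 18 (median -0.17, from -0.71 to 0.52), Chek1 in 7 of 8 (median -0.16, from -0.64 to 0.27), Atm in 4 of 5 (median -0.28) and Chek2 in 2 of 2. The lowest Atr ratio was in a Sertoli cluster of 45 control and 77 cKO cells, with 62 and 39 UMIs (-1.06, -1.67 to -0.46), where Mdc1 had 29 and 16 (-1.25, -2.22 to -0.32) and Kdm6a 11 and 19. Sertoli cells are somatic and should be spared by Ddx4-Cre. In the largest Sertoli cluster, of 428 control and 238 cKO cells, Atr had -0.26 (-0.73 to 0.21) and Mdc1 -0.54 (-1.19 to 0.08). These intervals include 0, and the cause of the ratios in Sertoli clusters was not tested. Over all genes tested in a cluster the median ratio was below 0 in 19 of 22 clusters, from -0.15 to 0.08, and the share of genes below 0 ran from 44.2% to 68.0%. The clusters share 1 library per genotype, so these counts describe how the difference between those libraries was spread and are not repeated measurements of it. In Leydig cells, which Ddx4-Cre should spare, Atr had 41 control and 38 cKO UMIs, a log2 ratio of 0.09 (-0.58 to 0.77), an interval that includes both no difference and the size seen in late spermatocytes. An empty droplet per cell would give 19.3 of the 44.1 CPM of Atr in control and 10.5 of the 47.0 in cKO Leydig cells, and the ratio was computed without subtracting it. Brca1 had 9 control UMIs (9.68 CPM) and 0 cKO UMIs in Leydig cells (up to 4.56 CPM), with an upper limit of -0.78 on its log2 ratio. In the Leydig cluster it had 12 and 0 UMIs (upper limit -1.10). In that cluster Chek2 went the other way, with 1 control and 8 cKO UMIs (log2 ratio 3.37, 0.47 to 8.84). Brca1 and Chek2 were below the limit of 50 UMIs there. The intervals were not adjusted for reading 9 genes in 2 overlapping sets of cells, so no difference is read from these counts. The other 7 genes were within counting error of no difference both in Leydig cells and in the cluster. Leydig cells held all 8 of their markers. The Sertoli assignment held much spermatid RNA (85205 and 74081 CPM of elongating spermatid markers). Atr there had a ratio of -0.25 (-0.47 to -0.03) and Mdc1 of -0.57 (-0.90 to -0.25). For the other genes the intervals in this assignment included 0. The cause of these ratios was not tested.

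**Figure D4:**
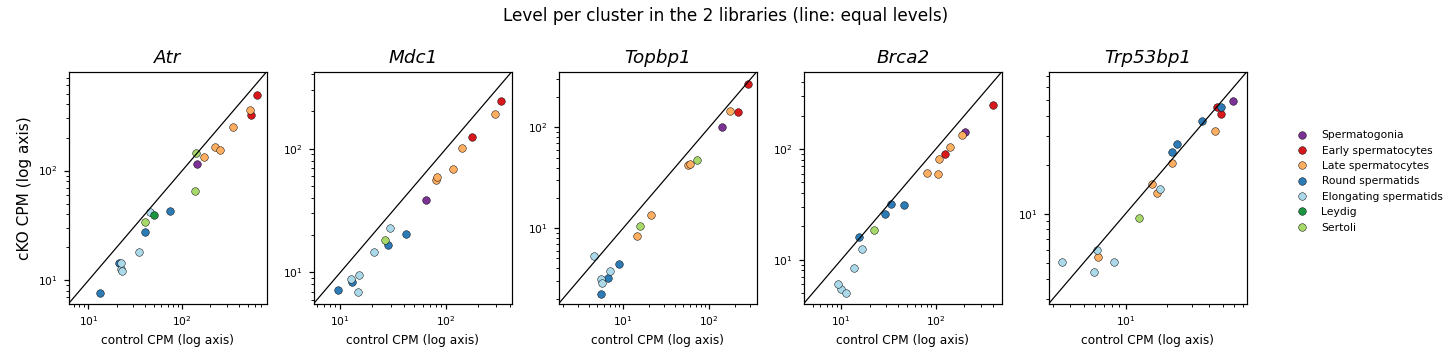
Level of 5 of the genes in each cluster with at least 50 of their UMIs, control library (horizontal) against cKO library (vertical), both in CPM on log axes and coloured by the stage the cluster was named for; the line marks equal levels. Points of Mdc1 lie below the line in 18 of 18 clusters and those of Atr in 20 of 21, while Trp53bp1 points lie on both sides of it, 13 of 18 below.

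The other genes of the pathway were read from a list of 54, grouped by role, all of which had at least 50 UMIs. In both libraries 26 of 54 were highest in spermatogonia (25.7% of all genes), 15 in early spermatocytes (12.6%), 4 in late spermatocytes, 1 in round and 1 in elongating spermatids. Of the 4 meiotic partners of ATR and BRCA2, 3 were highest in early spermatocytes, among them Hormad1, an axis protein needed to recruit ATR to unsynapsed chromosomes (830 CPM in control and 717 in cKO), and Hsf2bp, a BRCA2-binding meiotic protein (126 and 144). Of 14 genes of ATR activation, 7 were highest in spermatogonia and 5 in early spermatocytes. Rad17, the loader of the 9-1-1 clamp, was at 117 and 95.6 CPM in early spermatocytes, and Tipin, of the fork protection complex, at 142 and 145 in spermatogonia. Of 7 genes of break sensing, 5 were highest in spermatogonia, among them Rad50 and Mre11a of the MRN complex (254 and 238 CPM for Rad50, 46.2 and 43.4 for Mre11a). Of 13 recombination genes, 7 were highest in spermatogonia and 3 in early spermatocytes, where Rbbp8 (CtIP, an end resection factor) was at 152 and 103 CPM. Blm, a helicase, was highest in spermatogonia in control (66.5) and in early spermatocytes in cKO (48.0). Of 9 genes of the chromatin response, Rif1, a 53BP1 effector, was highest in early spermatocytes (383 and 353) and Mad2l2, of the shieldin complex, in late spermatocytes (442 and 464). Of 7 checkpoint outputs, Mdm2, the p53 ligase, was highest in round spermatids (170.3 and 178) and Cdc25a, a phosphatase and CHK1 substrate, in spermatogonia (92.9 and 60.3).

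Between the libraries, 2 of 54 genes of the list were at least 1.5-fold lower in cKO over all cells (1.41% of all genes were) and 0 higher, with a median log2 ratio of -0.18. The number lower was 4 of 43 in spermatogonia (8.4% of all genes), 3 of 50 in early spermatocytes (13%), 1 of 52 in late spermatocytes (1.71%), 3 of 48 in round spermatids (5.19%) and 4 of 47 in elongating spermatids (3.06%). The medians ran from -0.29 in elongating to -0.10 in round spermatids, and none was higher in any of the 5 germ-cell stages. Rif1 had -0.38 in late spermatocytes, Rbbp8 -0.43, Blm -0.41 and Hormad1 -0.19, whereas Hsf2bp had 0.09 and Mad2l2 0.07. The difference between the list and the 9 genes was not tested.

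Profiles over the 5 germ-cell stages in both libraries (10 points, sharing 2 libraries and their depth) were set beside those of 14909 genes with at least 200 UMIs. The closest to Atr were Lin9 (r = 0.997), Ccp110 (0.997) and Bod1l (0.994). Genes close to Mdc1 were Meioc (0.996) and Tbc1d1 (0.995), and genes close to Topbp1 were Setd2 (0.996) and Zfp652 (0.995). For Brca2 they were Arhgap35, 2310057M21Rik and Cnot7 (0.996 to 0.994), for Atm Swap70, Ppp1r15a and Akap13 (0.997 to 0.994), and for Chek2 E2f6, Slc35g1 and E330009J07Rik (0.996 to 0.991). Chek1 was closest to Zfp711, Shq1 and Fam220a (0.993 to 0.990), Trp53bp1 to Ppp4r2, Hmgcs1 and Swt1 (0.996 to 0.988), and Brca1 to Wasf1, Ofd1 and Trmt6 (all 0.992). Meioc is among the markers of the early spermatocyte stage. Among the 9 genes the closest pairs were Atr with Mdc1 (0.991), Atm with Chek2 (0.949), then Topbp1 with Atr, Brca1 with Atm and Brca1 with Chek1 (each 0.931), and the least alike were Mdc1 and Chek1 (0.157). With 10 points and few stages many genes reach high values, and these coefficients are given as descriptions.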

How the data were processed

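Single-cell UMI counts, deposited by the authors as unfiltered matrices made with Cell Ranger against mm10 per the submitters' processing notes, were summed over barcodes with at least 3000 UMIs and given as counts per 1000000 UMIs (CPM). Cells took the stage with the highest mean z score of marker genes, at least 3 of them detected. With 1 library per genotype no test was run. Ratios have exact binomial and levels exact Poisson 95% intervals, covering counting error only. The background is the share of genes with at least 50 UMIs past 1.5-fold on log2(CPM + 1). Empty droplets are barcodes at the modal low total. Scrublet called 5.25% of control and 6.01% of cKO cells doublets, which were kept and left out as an alternative. The members, lists and named-gene rules (all 9 members; in each of 6 roles of the list the 2 genes with most UMIs; the 3 most alike profiles) were chosen with earlier results of these data known. Alternatives were other depth limits, filters, gates, weights, centring and subtraction of free RNA. ATAC-seq region lists deposited by the authors give a fold enrichment ratio and −log10 q-values from MACS2, and CUT&Tag lists give summed signal from SEACR, per the submitters' processing notes (mm10). Versions of Cell Ranger, MACS2 and SEACR: not given in the sources used here. Functions were tested on simulated data with Python 3.11.15, scipy 1.17.1 and Scanpy 1.11.5. Bulk RNA-seq tables, deposited by transcript, were not used here. A limit of every level is that 3′ tags measure captured molecules and carry no gene length. For each of the 9 genes, up to 3 genes with the highest Pearson correlation of stage profiles were named, and some of these are not reported here.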

Additional observations from a re-analysis of the deposited data

How the results depend on the processing

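No paired analysis was possible because each genotype has 1 single-cell library and no test was run. Members at least 1.5-fold lower over all cells numbered 2, and 4 with each cell weighted equally and 0 with the stage levels averaged by the control stage shares of UMIs. Under 8 other settings there were 2 or 3. In early spermatocytes the count was 3; it was 5 in cells with a Stra8 UMI (13.8% of all genes) and 5 in the largest cluster of control early spermatocytes (10.7%), both chosen after seeing the data. It was 2 to 4 in the other 13. Among these, subtracting 1 empty droplet per cell and leaving out early spermatocytes with a Stra8 UMI were also not planned beforehand. Members highest in early spermatocytes in both libraries numbered 4, and 2 (Atr and Mdc1) when free RNA was subtracted from protamine and transition protein UMIs; Brca2 also left this group at a minimum of 5000 UMIs. The number at least 2-fold lower in round than late spermatocytes was 4 to 6 under the 9 settings that move stages or levels. In the setting that subtracted free RNA by protamine and transition protein UMIs, round spermatids were left unsubtracted. Trp53bp1 did not reach 2-fold higher in round spermatids at a minimum of 2000 UMIs, with cells weighted equally, or with clusters as stages. The share of control early spermatocytes with an Atr UMI was 77.2%, and 88.6% unthinned and 90.1% at 5000 UMIs. Over 51 ratios of single members and 515 alternative values, 455 stayed within the counting interval of the main value and 54 moved beyond it. A ratio whose interval left out 0 changed sign in 6. They were, after free RNA read from protamine and transition protein UMIs was subtracted in spermatogonia, Atm (1.06), Chek2 (0.072), Topbp1 (0.82), Brca1 (0.91) and Brca2 (0.67), and Trp53bp1 in cells with a Stra8 UMI (0.026). The cause was not tested. That subtraction left no Mdc1 in cKO spermatogonia and so gave no ratio for it. Depth limits Chek2 most, with 172 control and 97 cKO UMIs in all cells.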
